A study of Mus musculus with 8 samples.

Results

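The mitosis and spindle genes described here were 38 protein-coding genes, taken by symbol, whose products carry a cell from mitotic entry to cytokinesis. Each symbol was matched through GENCODE release M21 to the Ensembl identifiers of a table of raw read counts, and all 38 were found once among 48709 listed genes. All 38 also passed the filter on low counts that left 14929 genes for testing. RNA had been sequenced from 8 lung tumors of mice, 4 *K-Ctrl* and 4 *K-Setd2KO*. All 8 tumors came from the *K* mouse model, kept on a mixed strain background, in which Cre starts tumors in the lung. They were started by lentivirus delivered through the trachea, and the vector brought Cre and Cas9 in both groups. The guide RNA was the difference between the groups, directed at GFP, which these mice lack, in *K-Ctrl* and at *Setd2*, whose product trimethylates histone H3 lysine-36, in *K-Setd2KO*. The study matched low-grade tumors by histology and froze them whole, so host cells that never met the vector were included, and a guide need not edit every infected cell. Ages and tumor durations for these 8 are not given in the labels used here. Part of the labels speaks of cell lines, a discrepancy that was not resolved, and nothing in the labels says that the tumors came from separate mice, so p-values measure the spread between these tumors.

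Mitosis is driven by cyclin B bound to CDK1, and its entry, its spindle and its exit are each run by proteins made mainly in G2 and M phase. The kinetochore, with the NDC80 complex at its outer face, ties chromosomes to spindle microtubules. The spindle assembly checkpoint holds back the anaphase-promoting complex until all chromosomes are attached, after which separase cuts cohesin and the central spindle guides cytokinesis. Most of these genes are silent in resting cells, held down through CHR promoter elements by the DREAM complex. In G2 they are driven by MYBL2-MuvB and FOXM1, and by NF-Y through CCAAT elements. Their transcripts are therefore widely used as a readout of cycling cells, and *Mki67* encodes the Ki-67 protein that pathologists stain for. In whole tumors, fewer cycling cells and less mitotic RNA per cell cannot be told apart.

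The shared promoter elements are shown for 7 members on which the results below turn, 3 past the test, the cyclin gene *Ccnb2*, and 3 that did not follow the others. The RefSeq promoter table on GRCm38.p6, which spans 250 bases before to 50 bases after the annotated start, held 30 of the 38 genes in 32 promoters. *Foxm1*, *Ccna2*, *Cdc25c*, *Tpx2*, *Aurkb*, *Incenp*, *Spc24* and *Kif20a* were not in it. Each run below holds 120 bases before the start and 50 from it, 5′ to 3′ on the gene's own strand, with capitals on 3 kinds of motif searched on both strands. These were CCAAT, the CHR element (written TTTGAA in its common form and TTCGAA in its variant) and E2F-like letters. The last comprised TTCCCGC, with the variants spelled TTGGCGC and also TTCGCGC. On the other strand CCAAT reads ATTGG, and in *Cdc20* and *Kif23* a CCAAT and a CHR match lie close together. The windows are chr2:69206164-69206333 (minus strand) for *Spc25*, chr2:118598091-118598260 (plus strand) for *Bub1b*, chr7:135716330-135716499 (minus strand) for *Mki67* and chr9:70421505-70421674 (minus strand) for *Ccnb2*. Those of *Kif23*, *Cdc20* and *Mad2l1* are chr9:61946750-61946919 (minus strand), chr4:118437294-118437463 (minus strand) and chr6:66535101-66535270 (plus strand).
Ccnb2: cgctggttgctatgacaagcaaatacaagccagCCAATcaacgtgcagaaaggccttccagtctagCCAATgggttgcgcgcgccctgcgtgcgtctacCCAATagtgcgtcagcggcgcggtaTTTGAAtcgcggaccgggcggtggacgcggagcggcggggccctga
Spc25: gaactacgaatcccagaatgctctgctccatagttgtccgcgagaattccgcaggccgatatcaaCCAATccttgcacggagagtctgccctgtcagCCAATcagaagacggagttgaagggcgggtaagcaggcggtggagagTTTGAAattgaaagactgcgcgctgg
Bub1b: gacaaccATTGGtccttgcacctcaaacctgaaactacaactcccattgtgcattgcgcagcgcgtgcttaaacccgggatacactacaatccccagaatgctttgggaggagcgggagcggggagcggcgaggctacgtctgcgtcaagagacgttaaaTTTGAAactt
Mki67: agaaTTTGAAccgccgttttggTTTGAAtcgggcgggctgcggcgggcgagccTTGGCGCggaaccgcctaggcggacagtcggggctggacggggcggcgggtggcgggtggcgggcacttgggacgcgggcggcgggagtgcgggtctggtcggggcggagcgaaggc
Cdc20: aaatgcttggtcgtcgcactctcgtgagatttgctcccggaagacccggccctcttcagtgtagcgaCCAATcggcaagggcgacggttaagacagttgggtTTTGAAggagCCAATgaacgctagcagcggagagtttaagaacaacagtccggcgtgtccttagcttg
Kif23: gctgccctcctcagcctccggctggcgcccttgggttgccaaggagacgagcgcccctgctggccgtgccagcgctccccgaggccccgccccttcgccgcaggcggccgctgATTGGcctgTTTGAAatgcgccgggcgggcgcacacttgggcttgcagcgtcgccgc
Mad2l1: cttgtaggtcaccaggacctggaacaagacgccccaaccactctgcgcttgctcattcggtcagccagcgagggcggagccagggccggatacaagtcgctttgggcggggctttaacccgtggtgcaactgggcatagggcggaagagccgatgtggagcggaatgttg

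Of the 30 genes, 23 held CCAAT (76.7%), against 41.1% of the 27025 genes with a promoter in the table. The CHR letters were found in 23 (76.7%), against 21.7% of all genes, and both elements in 20 (66.7%), against 8.61%. A CHR match lay within 40 bases of the start in 21 of the 30 genes and in 5.25% of all genes. *Ccnb2* carried CCAAT at 87, 54 and 21 bases before the start and CHR letters 4 bases after it, and *Spc25* carried CCAAT at 55 and 23 bases before the start and CHR letters 24 bases after it. E2F-like letters were rarer, in 4 of 30 genes (13.3%), against 9.2% of all genes. Both CCAAT and CHR letters were held by *Spc25*, *Bub1b* and *Mki67*, which passed the genotype test, and by *Kif23* and *Cdc20*, which did not. None of the motifs was found in the windows of *Mad2l1*, *Nuf2*, *Birc5* and *Pttg1*, which says only that these letters are not in those windows. A match is a description of the sequence and not evidence of binding.

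Across the genotype comparison, the mitotic genes were mostly lower in *K-Setd2KO*, and the 4 *K-Setd2KO* tumors differed widely among themselves. *Spc25*, *Bub1b* and *Mki67* fell in *K-Setd2KO* by edgeR's quasi-likelihood test with Benjamini-Hochberg adjustment over all genes, at an adjusted p threshold of 0.05, and no member rose. This was 3 of 38 (7.89%), beside 12.7% of all genes tested called in either direction and 7.74% called lower, so by this test the share of members called was near the background. On the same 14929 genes, limma voom called 7 members (18.4%), all lower, beside 11.8% of all genes and 7.21% called lower. DESeq2 with its default settings, which differed from edgeR in the gene set as well as the test, called 9 members (23.7%), all lower. Of 28425 genes with any count it called 11.2%, and 6.92% as lower. That set includes genes removed by the filter that all 38 members passed, so its share is not a like background for the members. In the edgeR fit without *K-Setd2KO* replicate 4, the count was 6, with *Incenp*, *Bub1* and *Tpx2* added, beside 9.03% of all genes. The direction was more uniform than the calls. The log2 fold change was below 0 for 36 of the 38 members, against 47.3% of all genes, and its median was −0.83 (1.78-fold lower), against 0.03 over all genes. At an unadjusted p under 0.05 there were 14 members (29.9% of all genes), and 8 members had a fitted difference above 2-fold. CPM, the count of a gene relative to the TMM-scaled total of its library, lay lower in all 4 *K-Setd2KO* tumors than in any *K-Ctrl* tumor for 12 members, against 11.2% of all genes. These were *Mki67*, *Top2a*, *Ccna2*, *Ccnb1*, *Tpx2*, *Kif11*, *Aurkb*, *Bub1b*, *Spc25*, *Kif20a*, *Ect2* and *Anln*.

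**Figure D1:**
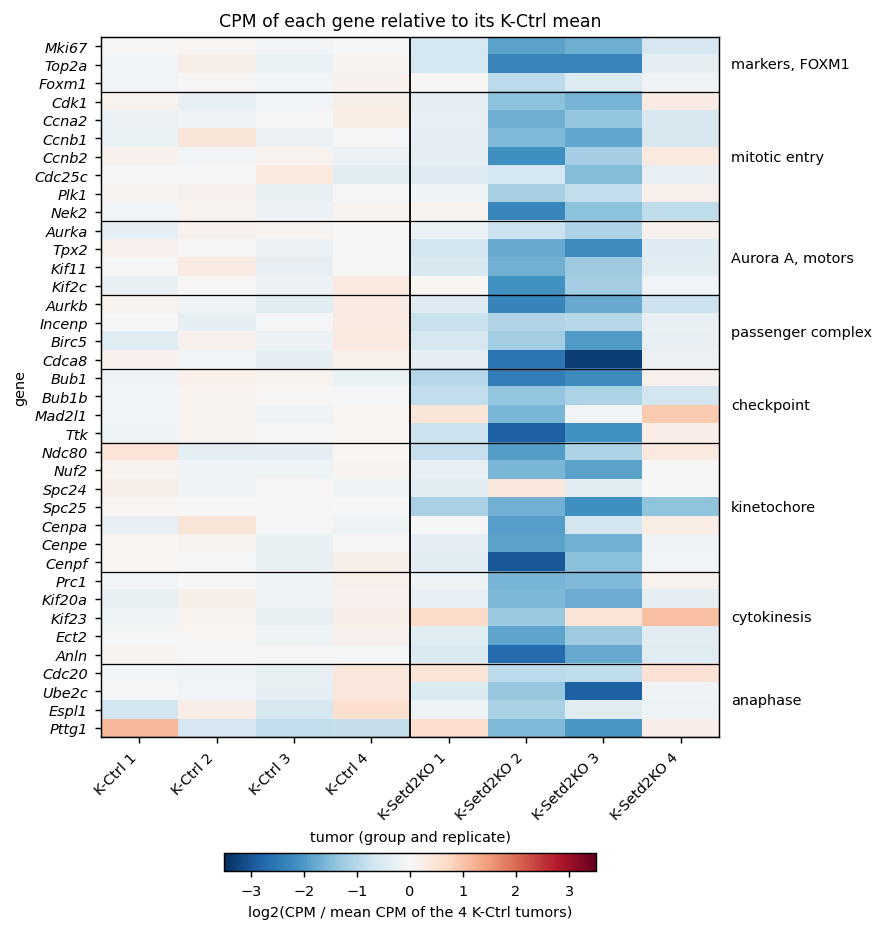
CPM of each of the 38 genes (rows, grouped by role) in each of the 8 tumors (columns), as log2 of the ratio to the gene's mean over the 4 K-Ctrl tumors (blue lower, red higher). K-Setd2KO replicates 2 and 3 are blue for nearly all rows, replicates 1 and 4 are pale, and Kif23, Mad2l1 and Cdc20 are red in replicates 1 and 4.

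The spread within *K-Setd2KO* was wide for these genes. The highest of the 4 *K-Setd2KO* tumors exceeded the lowest by a median of 3.33-fold over the members (1.66 to 8.53), against 1.38-fold within *K-Ctrl* (1.09 to 4.05), and it was the wider spread for 37 of the 38 genes. Over all genes tested, the same medians were 1.74-fold and 1.51-fold. *Spc25* and *Bub1b* were among the members with the most even *K-Setd2KO* values. Counts of a member in a single tumor ran from 4 to 1954, so the lowest, such as *Cdc25c*, carry appreciable counting error.

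**Figure D2:**
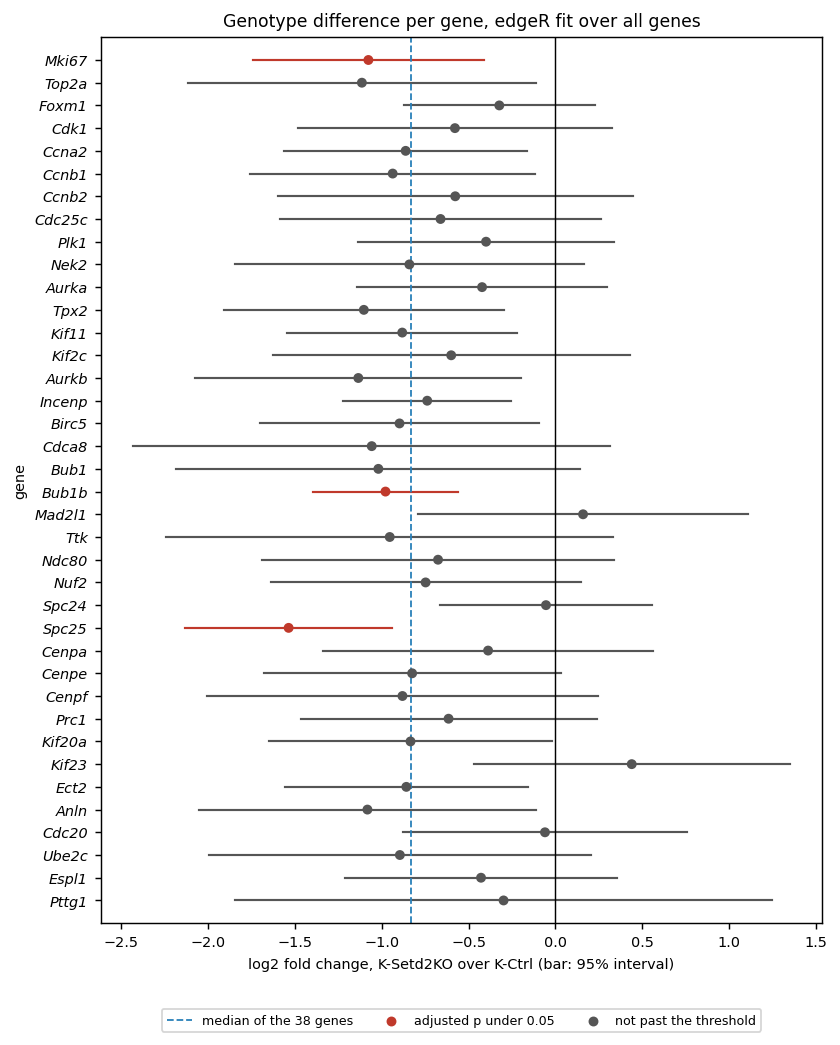
Fitted log2 fold change of K-Setd2KO over K-Ctrl for each of the 38 genes, with bars for its 95% interval and a dashed line at the median of −0.83. The 3 genes past the threshold are red, 36 points lie left of 0, and 14 of the 38 bars do not reach 0.

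The proliferation markers and the G2/M transcription factor came first. Values per tumor are given in CPM throughout, in the order of replicates 1 to 4. *Mki67* (chr7:135689784-135716361), whose product coats mitotic chromosomes, stood at 96.4, 101.8, 90.2 and 96.8 in *K-Ctrl* and at 63.4, 26.1, 29.3 and 64.0 in *K-Setd2KO*. The groups did not overlap, and replicates 2 and 3 of *K-Setd2KO* were well below replicates 1 and 4. The log2 fold change was −1.08 ± 0.295 (SE, 95% interval −1.74 to −0.41), with an adjusted p of 0.0449 by edgeR. The call was lost in 8 of 16 alternatives, among them leaving out any 1 of the 4 controls or *K-Setd2KO* replicate 2 or 3 (edgeR adjusted p from 0.0545 to 0.0984) and adding a sex term to the fit (0.0527). A gene on the opposite strand overlaps its span. *Top2a*, the topoisomerase that untangles sister chromatids, stood at 64.3, 78.8, 58.4 and 74.3 in *K-Ctrl* and at 44.7, 14.0, 13.9 and 55.5 in *K-Setd2KO*. The *K-Setd2KO* mean was 32.0 ± 21.3 CPM (SD, n = 4), with replicates 2 and 3 far below the others, and the log2 fold change of −1.11 (−2.12 to −0.11) had an edgeR adjusted p of 0.13. *Foxm1*, which activates many G2/M genes, overlapped between the groups, at 8.13, 8.99, 8.08 and 9.64 in *K-Ctrl* and 8.94, 4.59, 6.28 and 8.04 in *K-Setd2KO*. Its difference was small, −0.32 (−0.87 to 0.23, edgeR adjusted p = 0.41). *Foxm1* lies on chromosome 6, and 2 other genes lie within its span on the same strand.

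Among the 7 genes of mitotic entry, none passed, all 7 log2 fold changes were below 0, and their median was −0.66. *Cdk1*, the kinase of mitotic entry itself, stood at 12.6, 9.50, 10.9 and 13.4 in *K-Ctrl* and at 9.19, 4.28, 3.78 and 14.2 in *K-Setd2KO*. The *K-Setd2KO* values bracketed the control range, with replicate 4 above all controls and replicates 2 and 3 far below, and the difference was −0.58 (−1.48 to 0.33, edgeR adjusted p = 0.37). *Ccna2*, cyclin A2, which serves S phase and early mitosis, had the smallest p of the 7, at 14.0, 15.0, 16.4 and 19.3 in *K-Ctrl* and 13.4, 4.97, 6.28 and 11.0 in *K-Setd2KO*. All 4 *K-Setd2KO* values were below all 4 controls, and the difference of −0.86 (−1.56 to −0.16) had an edgeR adjusted p of 0.099. *Plk1*, the Polo kinase that activates CDK1 and matures centrosomes, had the largest p, at 6.40, 6.72, 4.99 and 5.98 in *K-Ctrl* and 5.55, 2.68, 3.32 and 6.85 in *K-Setd2KO* (−0.40, interval −1.14 to 0.34). The B-type cyclins differed in rank, *Ccnb1* at a mean of 8.10 ± 1.92 against 4.23 ± 2.00 CPM (SD, n = 4 per group) and *Ccnb2* at 7.44 ± 0.886 against 5.07 ± 3.39. The intervals of their differences were −1.76 to −0.11 and −1.60 to 0.45. *Nek2*, a centrosome-separating kinase, had means of 8.23 ± 0.920 and 4.54 ± 3.17 CPM. *Cdc25c*, the phosphatase that unlocks CDK1, was the lowest member per kilobase of exon (0.54 CPM per kb in *K-Ctrl*), at 1.05 ± 0.221 and 0.671 ± 0.212 CPM.

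Aurora A, its activator TPX2 and 2 kinesins build and move the spindle, and their 4 genes had log2 fold changes from −1.10 to −0.42 with none past the test. *Tpx2* stood at 21.7, 20.3, 16.9 and 19.5 in *K-Ctrl* and at 12.4, 5.81, 4.25 and 14.2 in *K-Setd2KO*. The groups did not overlap, and the difference had an interval of −1.91 to −0.30 and an edgeR adjusted p of 0.0736. *Kif2c*, the microtubule-shortening kinesin MCAK, overlapped, at 4.12, 5.13, 4.29 and 6.34 in *K-Ctrl* and 5.24, 1.15, 2.12 and 4.62 in *K-Setd2KO* (−0.60, interval −1.63 to 0.43). *Kif11*, the bipolar-spindle motor Eg5, had means of 16.2 ± 2.61 and 8.81 ± 3.53 CPM (edgeR adjusted p = 0.0794). *Aurka* itself differed less, at 4.51 ± 0.617 and 3.39 ± 1.26 CPM (−0.42, interval −1.14 to 0.30).

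The chromosomal passenger complex, in which Aurora B is held by INCENP, survivin (*Birc5*) and borealin (*Cdca8*), had a median of −0.98 over 4 genes, none past the test. *Incenp* came closest of all members outside the 3 called, at 30.7, 25.2, 29.8 and 39.0 in *K-Ctrl* and 18.3, 15.0, 15.6 and 26.2 in *K-Setd2KO*. The highest *K-Setd2KO* tumor, replicate 4, overlapped the lowest control, and the difference was −0.74 (−1.22 to −0.26, edgeR adjusted p = 0.0524). Per kilobase of exon, *Incenp* was also the most abundant member in *K-Ctrl* (9.69 CPM per kb), next to *Mki67* (9.57). *Cdca8* showed how far the tumors could part, at 10.2, 8.57, 7.34 and 10.3 in *K-Ctrl* and 7.29, 1.53, 0.92 and 7.87 in *K-Setd2KO*. Replicates 1 and 4 were close to the lowest control and replicates 2 and 3 several fold lower, which gave an interval of −2.43 to 0.31. *Aurkb* had means of 6.63 ± 1.27 and 3.01 ± 1.68 CPM (−1.14, edgeR adjusted p = 0.105), and *Birc5* 10.5 ± 2.47 and 5.68 ± 2.61 CPM (−0.90, edgeR adjusted p = 0.129).

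In the spindle assembly checkpoint, 1 of 4 genes fell and 1 had a fold change above 0. *Bub1b* (chr2:118598211-118641591), which encodes BUBR1, the checkpoint subunit that binds CDC20, stood at 18.8, 21.7, 20.5 and 19.3 in *K-Ctrl* and at 11.1, 7.73, 9.23 and 12.8 in *K-Setd2KO*. The lowest control was well above the highest *K-Setd2KO* tumor, and the log2 fold change was −0.98 ± 0.186 (SE, 95% interval −1.40 to −0.56, edgeR adjusted p = 0.0135), the smallest SE of any member. Its partner *Mad2l1*, which encodes MAD2, behaved otherwise, at 19.2, 22.4, 18.9 and 21.6 in *K-Ctrl* and 27.7, 6.73, 19.2 and 38.7 in *K-Setd2KO*. Replicates 1 and 4 were above all controls and replicate 2 far below them, and the difference of 0.16 had a wide interval (−0.79 to 1.11, edgeR adjusted p = 0.833). The kinases *Bub1* and *Ttk*, which recruit checkpoint proteins to kinetochores, had fold changes of −1.02 (−2.18 to 0.14) and −0.95 (−2.24 to 0.33). Their *K-Setd2KO* means were 4.96 ± 4.23 and 2.35 ± 2.05 CPM, with an SD nearly as large as the mean.

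The kinetochore genes held the most negative difference of all members and another close to 0. SPC24 and SPC25 form 1 dimer of the 4-protein NDC80 complex, and NDC80 and NUF2 form the other. *Spc25* (chr2:69193895-69206194) had the most negative fold change of all members, at 8.49, 8.07, 7.80 and 8.12 in *K-Ctrl* and 3.70, 2.52, 1.85 and 3.08 in *K-Setd2KO*. All 4 *K-Setd2KO* tumors were far below the lowest control, and the log2 fold change was −1.54 ± 0.264 (SE, 95% interval −2.13 to −0.94, edgeR adjusted p = 0.0104). *Spc24* stood at 5.11, 4.03, 4.57 and 4.02 in *K-Ctrl* and at 3.44, 5.81, 3.42 and 4.45 in *K-Setd2KO*, so the groups overlapped and the highest tumor of all 8 was *K-Setd2KO* replicate 2, where most members were lowest. Its difference was −0.05 (−0.66 to 0.55). The CPM of *Spc25* divided by that of *Spc24* was 1.66, 2.00, 1.71 and 2.02 in *K-Ctrl* and 1.07, 0.434, 0.541 and 0.692 in *K-Setd2KO*, without overlap. This ratio was looked at because of the values of both genes and has no test. The other dimer lay between, *Ndc80* at 7.70 ± 2.13 and 4.93 ± 3.37 CPM (−0.68, interval −1.69 to 0.34) and *Nuf2* at 11.1 ± 1.12 and 6.69 ± 3.93 CPM (−0.75, interval −1.64 to 0.15). *Cenpa*, the centromeric histone H3 variant, had means of 6.44 ± 1.47 and 4.96 ± 2.63 CPM. *Cenpe*, a kinetochore motor, and *Cenpf*, a large kinetochore protein, had fold changes of −0.83 (−1.68 to 0.03) and −0.88 (−2.01 to 0.24), and *Cenpf* had 2.60 CPM in *K-Setd2KO* replicate 2 against 17.3 to 23.8 in *K-Ctrl*.

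**Figure D3:**
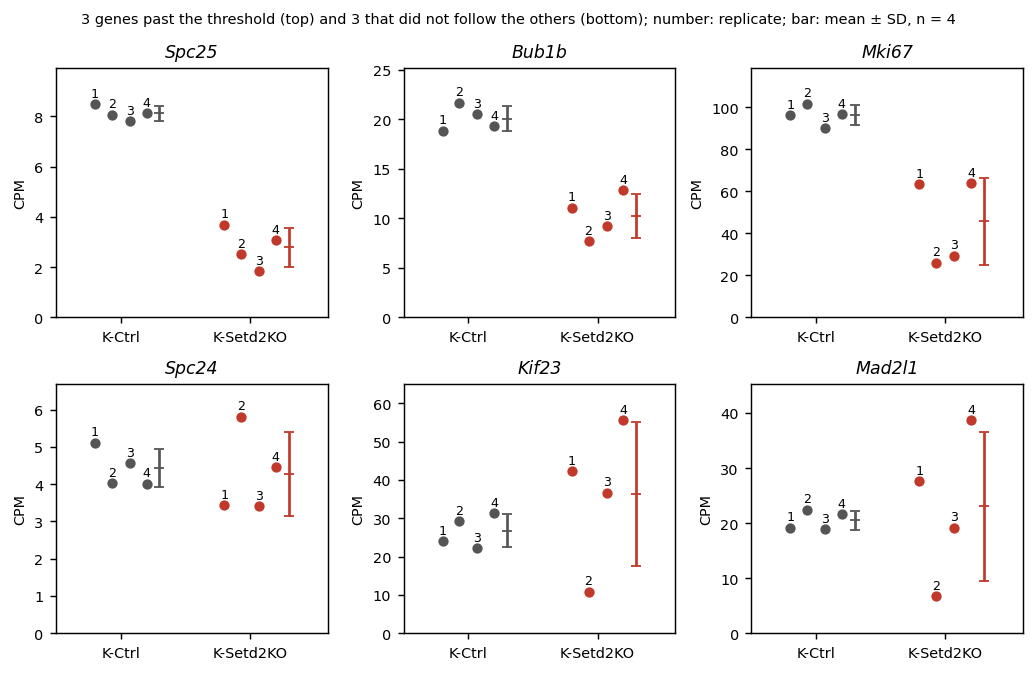
CPM per tumor (points, with replicate numbers) and mean ± SD (n = 4 per group) of the 3 genes past the threshold (top) and of Spc24, Kif23 and Mad2l1 (bottom). The groups are apart for Spc25, Bub1b and Mki67 and overlap for the others, and K-Setd2KO replicate 2 is the highest tumor for Spc24 and the lowest for Kif23 and Mad2l1.

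For the central spindle and cytokinesis, no gene of 5 passed. *Ect2*, the exchange factor that activates RhoA at the cleavage furrow, had the smallest p of the 5, at 15.9, 17.3, 14.9 and 18.5 in *K-Ctrl* and 12.4, 4.67, 6.92 and 12.8 in *K-Setd2KO* (−0.86, interval −1.56 to −0.16, edgeR adjusted p = 0.1). *Kif23*, which encodes the kinesin MKLP1 of the centralspindlin complex that recruits ECT2, had the highest fold change of all members. It stood at 24.1, 29.3, 22.2 and 31.3 in *K-Ctrl* and at 42.3, 10.9, 36.7 and 55.6 in *K-Setd2KO*. Replicates 1, 3 and 4 were above all controls and replicate 2 was below them, and the difference was 0.44 (−0.47 to 1.35, edgeR adjusted p = 0.501). Without *K-Setd2KO* replicate 2 it was 0.74 and passed as higher (edgeR adjusted p = 0.0392). *Anln*, the actin-binding anillin, had means of 21.6 ± 1.17 and 10.3 ± 6.38 CPM with no overlap, and *Kif20a*, a central spindle kinesin, 9.15 ± 1.42 and 5.14 ± 2.58 CPM, also with none. *Prc1*, which bundles the antiparallel microtubules there, overlapped at 28.9 ± 2.87 and 19.0 ± 11.0 CPM (−0.62, interval −1.47 to 0.24).

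Of the 4 genes that act at anaphase, none passed, none separated the groups, and the median was −0.36, the least negative of the 8 roles. *Cdc20*, the activator of the anaphase-promoting complex, stood at 11.0, 10.5, 9.83 and 15.5 in *K-Ctrl* and at 15.9, 6.20, 6.37 and 16.6 in *K-Setd2KO*. Replicates 1 and 4 were above all controls and replicates 2 and 3 below all of them, and the difference was −0.06 (−0.88 to 0.76). *Ube2c*, the E2 enzyme of the same complex, was at 6.46, 6.22, 5.26 and 8.75 in *K-Ctrl* and 4.73, 2.68, 0.92 and 6.16 in *K-Setd2KO* (−0.90, interval −1.99 to 0.20, edgeR adjusted p = 0.253). *Espl1* (separase) and *Pttg1* (securin, its inhibitor) had differences of −0.43 (−1.21 to 0.36) and −0.30 (−1.84 to 1.25). The interval of *Pttg1* was the widest of all, with a *K-Ctrl* mean of 4.95 ± 4.06 CPM set largely by replicate 1 at 11.0.

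The members moved together from tumor to tumor. A level per tumor was formed as the mean over the 38 genes of log2 CPM (prior count 2), each gene centered on its mean over the 8 tumors, with no test. In replicate order, *K-Ctrl* stood at 0.42, 0.46, 0.28 and 0.52, while *K-Setd2KO* stood at 0.12, −1.17, −0.95 and 0.32. The *K-Ctrl* mean was 0.42 ± 0.0997 and the *K-Setd2KO* mean −0.42 ± 0.752 (SD, n = 4 each), so the SD was several fold larger in *K-Setd2KO* and replicate 4 lay inside the control range. The median member was at 0.798, 0.327, 0.375 and 0.934 times its *K-Ctrl* mean across *K-Setd2KO*, in the same order. The summed CPM of the members was 539 to 645 in *K-Ctrl* and, tumor by tumor, 477, 185, 245 and 558 in *K-Setd2KO*.

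The order of the 4 *K-Setd2KO* tumors hardly varied with role. Replicates 1 and 4 both exceeded replicates 2 and 3 for 37 of the 38 members, *Spc24* being the exception. The full order was replicate 4, 1, 3 and 2 from high to low for 19 members, and 4, 1, 2 and 3 for 9. Replicate 2 was below all controls for 37 members, replicate 3 for 35, replicate 1 for 27 and replicate 4 for 14. Shares over all genes were not counted for these orders and ranks, which describe the members only. Replicate 4 was the highest of all 8 tumors for 7 members, *Cdk1*, *Ccnb2*, *Plk1*, *Mad2l1*, *Ttk*, *Kif23* and *Cdc20*. Pearson's r over the 703 pairs of members had a median of 0.84 over the 8 tumors, 0.89 within *K-Setd2KO* and 0.32 within *K-Ctrl*. This is a description over few tumors, which also differ in depth and cell makeup.

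**Figure D4:**
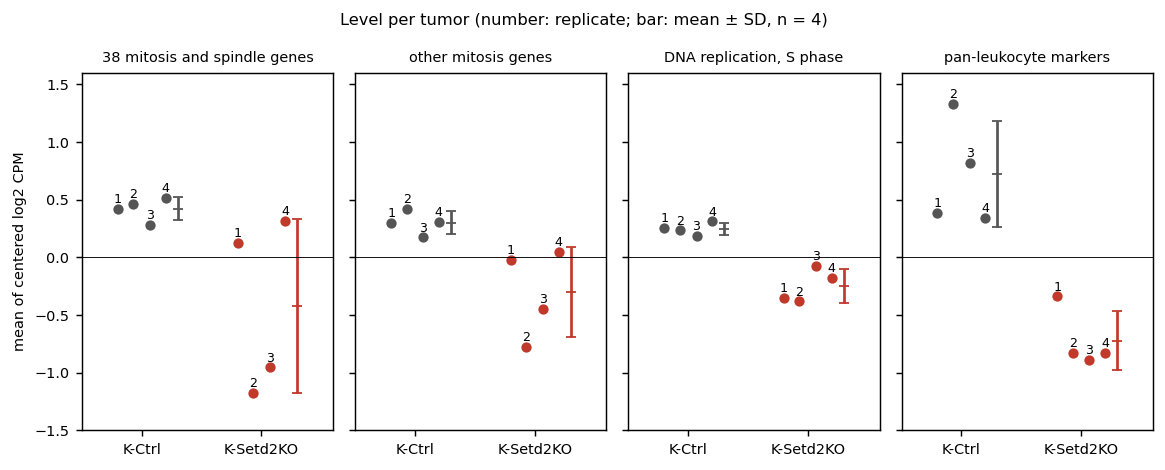
Mean of centered log2 CPM per tumor (points, with replicate numbers) and mean ± SD (n = 4 per group) for the 38 genes, the other mitosis genes, the replication genes and the pan-leukocyte markers. K-Setd2KO runs from −1.17 to 0.32 for the 38 genes and from −0.38 to −0.07 for the replication genes, where replicate 3 is the highest of the group.

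With each gene taken relative to the mean of the other members, *Kif23* was higher in *K-Setd2KO* by 1.10, *Spc24* by 0.79, *Mad2l1* by 0.78 and *Cdc20* by 0.67 on the log2 scale. The lowest were *Spc25* (−0.71), *Cdca8* (−0.69) and *Top2a* (−0.54). These differences have no test, and on this relative scale the groups overlapped for *Spc24*, *Mad2l1*, *Spc25* and *Cdca8*. *Kif23* was also the most abundant member per kilobase of exon in *K-Setd2KO* (10.6 CPM per kb, against 7.81 in *K-Ctrl*), followed by *Cdc20* (6.03 against 6.27) and *Incenp* (5.83 against 9.69). *Mad2l1* and *Foxm1* are on chromosome 6, where the median of 839 tested genes was 0.34, −0.03, 0.31 and 0.38 (log2, relative to the *K-Ctrl* mean) over *K-Setd2KO* and between −0.04 and 0.02 over *K-Ctrl*. Its part in their values was not tested. *Kif23* and *Spc24* are on chromosome 9 and *Cdc20* is on chromosome 4.

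Other genes of mitosis, 80 listed and 79 tested, included condensins, further centromere proteins, spindle factors and mitotic regulators. Of these, 6 fell and 1 rose (8.86% called), a share below the 12.7% of all genes. The log2 fold change was below 0 for 67 of the 79, against 47.3% of all genes, and the median was −0.55. *Ncapg2*, a condensin II subunit, had values of 18.0, 22.6, 18.7 and 18.4 in *K-Ctrl* and 10.4, 6.20, 10.9 and 7.53 in *K-Setd2KO*, a fall of −1.14 ± 0.214 (log2, SE, edgeR adjusted p = 0.0131). *Depdc1a* fell by 1.94 on the log2 scale (edgeR adjusted p = 0.0215). *Cdc25b*, the CDC25 phosphatase that starts CDK1 activation at the centrosome, rose instead, at 35.3, 27.1, 37.8 and 51.0 in *K-Ctrl* and 67.1, 94.2, 115.9 and 73.9 in *K-Setd2KO* (1.22 ± 0.230, edgeR adjusted p = 0.0134). Its values were highest in *K-Setd2KO* replicates 3 and 2, where the 38 members were lowest. Its relative *Cdc25c* did not pass.

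DNA replication and S phase genes differed from the mitotic genes in their order over the tumors. Of 41 tested of 42 listed, 10 fell (24.4%), beside 12.7% of all genes called and 7.74% called lower, with a median of −0.48. The count was 4 with a sex term or without *K-Ctrl* replicate 1 or 3 or *K-Setd2KO* replicate 1, 5 without *K-Ctrl* replicate 2 and 6 without *K-Setd2KO* replicate 3. *Pcna*, the sliding clamp, had values of 94.8, 85.0, 97.5 and 77.0 in *K-Ctrl* and 47.3, 43.9, 53.5 and 40.2 in *K-Setd2KO* (−0.94 ± 0.131, edgeR adjusted p = 0.00643), and *Ccne1*, cyclin E1, fell from a mean of 3.81 ± 0.762 to 0.958 ± 0.190 CPM (edgeR adjusted p = 0.00876). The level per tumor of these genes was 0.26, 0.24, 0.18 and 0.31 in *K-Ctrl* and −0.35, −0.38, −0.07 and −0.18 in *K-Setd2KO*. The mitotic level minus the replication level was 0.16, 0.23, 0.10 and 0.20 in *K-Ctrl*, and 0.48, −0.79, −0.88 and 0.50 in *K-Setd2KO*. The 4 *K-Setd2KO* tumors thus lay on both sides of the controls. In the same promoter windows, 7 of 33 replication genes held CHR letters (21.2%) and 20 held E2F-like letters (60.6%).

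The regulators of these promoters and of the G1 decision had medians near 0 as groups. Of 12 DREAM and MYBL2-MuvB genes, *Rbl1*, which encodes the pocket protein p107, fell (−0.73 ± 0.204, edgeR adjusted p = 0.0469), and the median was 0.01. Of 19 G1 cyclins, CDKs and CDK inhibitors, 4 fell and 1 rose (26.3% called), with a median of 0.06. *Ccnd2*, cyclin D2, fell from 170.6 ± 34.3 to 36.2 ± 8.54 CPM (SD, n = 4, edgeR adjusted p = 0.00306), and *Rb1*, the retinoblastoma protein gene, from 60.4 ± 10.5 to 33.5 ± 2.32 CPM (edgeR adjusted p = 0.0111). *Cdkn1b*, which encodes the CDK inhibitor p27 and, like *Ccnd2*, lies on chromosome 6, rose from 116.3 ± 19.1 to 179.3 ± 39.0 CPM (edgeR adjusted p = 0.0488).

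Genes outside the members that most closely followed their level over the 8 tumors included mitotic genes and others. By Pearson's r of log2 CPM with that level, the 10 highest included *Prr11* (0.98), *Fer*, *Aspm*, *Knstrn*, *Dlgap5*, *Susd1*, *Ap1g1*, *Cep55* and *Sfrp1* (0.97). Of these, *Aspm*, *Dlgap5* and *Cep55* were on the list of other mitosis genes, and *Knstrn* encodes a spindle and kinetochore protein. *Prr11* was at 6.71, 8.66, 6.83 and 7.76 CPM in *K-Ctrl* and 4.21, 0.765, 1.66 and 7.53 in *K-Setd2KO*. The 5 lowest were *Mif4gd* (−0.97), *Hnrnpl*, *Cnot10*, *Esyt3* and *Phykpl* (−0.99). Median r was 0.77 for the other mitosis genes, 0.41 for the replication genes and −0.00 for all genes, and each member followed the mean of the other members with a median of 0.94 (lowest −0.16, *Spc24*). With 8 tumors and 14891 genes these extremes are a description, and the tumors also differ in genotype, depth and cell makeup.

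Several measures of the tumors moved with genotype. *Setd2* RNA was 132.1 to 152.7 CPM in *K-Ctrl* and 121.3 to 152.7 in *K-Setd2KO* (edgeR adjusted p = 0.824), and since a guide's small edits need not lower a transcript, this does not check the labels. Total counts were 5806599 to 21290402 per tumor. Lung epithelial content was shown by *Sftpc* and *Nkx2-1*, surfactant protein C and the lung lineage factor, at 21506 to 32459 and 390.1 to 873.7 CPM. These genes do not tell tumor from normal lung. Of 8 epithelial markers 3 rose, and their summed level was 28253 to 42997 CPM in *K-Ctrl* and 35987 to 45790 in *K-Setd2KO*. Of 6 pan-leukocyte markers 4 fell, with sums of 970.8 to 1744.6 and 517.1 to 745.7 CPM, and of 5 macrophage markers 4 fell, with sums of 423.6 to 1422.3 and 145.5 to 290.0 CPM. Endothelial (2 of 5 fell), fibroblast (1 of 5) and T cell markers (1 of 6) had sums of 405.6 to 1586.1 against 153.9 to 386.9, 342.7 to 751.0 against 121.8 to 417.5 and 44.7 to 108.5 against 6.74 to 34.7 CPM. No B cell (4), neutrophil (4) or erythroid marker (3 tested of 4) passed. Levels per tumor, formed as for the mitotic genes, differed in order between marker lists. In *K-Setd2KO* the pan-leukocyte level was −0.34, −0.83, −0.89 and −0.83 and the macrophage level −0.58, −0.73, −1.05 and −1.33. The fibroblast level was 0.14, −0.59, −1.43 and 0.33, with replicates 1 and 4 inside the *K-Ctrl* range of 0.03 to 0.59. The T cell level was 0.61, −1.29, −2.18 and −0.81 and the B cell level 0.11, −0.69, −1.70 and −0.38. The neutrophil level was 0.71, −0.72, −0.02 and 0.71, but its genes differed. *Cxcr2* stood at 23.5, 0.841, 9.51 and 41.9 CPM, *S100a8* at 2.47, 2.60, 2.68 and 3.08 and *S100a9* at 5.44, 3.75, 4.98 and 1.71. The remaining gene of this list, *Csf3r*, was like *Cxcr2* higher in replicates 1 and 4 than in 2 and 3. The fibroblast, T cell, B cell and neutrophil levels, like the mitotic level, were higher in replicates 1 and 4 than in 2 and 3. Not every gene of these lists followed, as seen for *S100a8* and *S100a9*. *Dcn*, *Cd2* and *Cd8a* were slightly higher in replicate 2 than in replicate 4, and *Cd79a* and *Cd79b* were highest in replicate 2, at 4.74 and 16.8 CPM. The part of these cells in the mitotic values was not tested.

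Sex, read from sex-linked transcripts, was uneven, with *K-Ctrl* replicate 2 and *K-Setd2KO* replicates 1, 2 and 4 female and the others male. Among females (1 control, 3 *K-Setd2KO*), 34 of the 38 members had a mean log2 CPM lower in *K-Setd2KO*, with a median difference of −0.78. Among males (3 controls, 1 *K-Setd2KO*), 37 did, with a median of −1.42. *Spc25* differed by −1.36 and −2.06, *Bub1b* by −1.06 and −1.07 and *Mki67* by −1.10 and −1.68 in females and males, values with no test because 1 arm held 1 tumor. In a fit of all 8 tumors with a sex term, *Spc25* and *Bub1b* passed and *Mki67* did not (edgeR adjusted p = 0.0527), which made 2 of 38 members called (5.26%) beside 8.29% of all genes.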

How the data were processed

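RNA of 4 *K-Ctrl* and 4 *K-Setd2KO* whole tumors was sequenced as paired ends from a strand-aware mRNA kit. The authors deposited raw counts per gene, whole numbers with no normalization, with GRCm38 coordinates and exon lengths (1-based). The submitters' processing notes name STAR 2.5.2b, featureCounts 1.5.0-p1 and GRCm38.p4. Annotation release and strand setting are not given in the sources used here. Without strand, reads of a member and an overlapping gene on the other strand cannot be told apart, as for *Mki67*, *Top2a*, *Ccna2*, *Cdc25c*, *Plk1*, *Nek2*, *Cdca8*, *Cenpf*, *Prc1*, *Kif20a*, *Ect2*, *Cdc20* and *Ube2c*.

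Symbols came from GENCODE M21 (48349 of 48709 identifiers matched, 99.26%). In R 4.3.3, edgeR 4.0.16 was run with filterByExpr, TMM factors and the robust quasi-likelihood test of genotype over all 8 tumors, with Benjamini-Hochberg adjustment over 14929 genes and a threshold of 0.05. SE was the absolute log2 fold change over the square root of F, and intervals are 95%. Sequences and starts are RefSeq's. The scripts were tested on simulated data. Alternatives were other scalings and filters, DESeq2 1.42.0 (the study's tool), limma voom 3.58.1, a sex term, a replicate block and leaving out each tumor.

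Totals differed 3.67-fold, and 3 counts equalled 0.138 to 0.513 CPM. These limits cover counting error only. No 2 libraries of a group were copies (lowest chi-square per degree of freedom 30.5, over genes with at least 20 counts). Replicate numbers did not pair the tumors. All 38 members were named, with values per tumor for called members, for *Mki67*, *Top2a*, *Foxm1* and *Cdk1*, and for the smallest and largest p in each role. From other lists, the 2 smallest p in each direction among called genes were named, and the 10 highest and 5 lowest correlations. Members and lists were chosen with earlier results of these data known. Some items are not reported here.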

Additional observations from a re-analysis of the deposited data

Results flagged for a closer look

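*Pttg1* had 11.0 CPM in *K-Ctrl* replicate 1, far above 3.28, 2.72 and 2.77 in the other 3 controls, and was picked out by Dixon's test for a single distant value in a group of 4. *Ncapg2* had 22.6 CPM in *K-Ctrl* replicate 2, against 18.0, 18.7 and 18.4 in the others, by the same test. These were 2 of 118 groups tested, fewer than the 1 in 20 that chance gives.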

How the results depend on the processing

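*Spc25* and *Bub1b* passed in all 16 alternatives (adjusted p at most 0.035 and 0.0447), and *Mki67* in 8 (adjusted p 0.00558 to 0.0984). The count of 3 mitosis and spindle genes called became 9 with DESeq2 (adding *Incenp*, *Tpx2*, *Kif11*, *Aurkb*, *Ect2* and *Ccna2*), 7 with limma voom (adding *Incenp*, *Tpx2*, *Bub1* and *Top2a*), and 2 to 6 with each tumor left out in turn, the 6 without *K-Setd2KO* replicate 4. DESeq2 was run without the filter, on 28425 genes with any count, so both the test and the gene set changed. It called 11.2% of these, while limma voom called 11.8% of 14929, so these shares are over unlike sets. The median log2 fold change of the members ranged from −1.04 to −0.61 over leave-one-out fits, −0.61 and −0.62 without *K-Setd2KO* replicates 2 and 3, and no alternative changed its sign. The count over all genes, 1897 of 14929 (12.7%), became 3193 of 28425 (11.2%) with DESeq2, 1237 with a sex term and 763 to 2058 with 1 tumor left out. For the other mitosis genes, 7 calls became 3 without a filter, 17 with DESeq2, 12 with limma voom and 2 to 11 with 1 tumor left out. For the replication genes, 10 became 4 with a sex term and 4 to 12 with 1 tumor left out. The causes of these shifts were not tested.

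The replicate numbers did not pair the tumors, since the deviations of same-numbered tumors had correlations of −0.07, −0.03, 0.19 and −0.02 and 1 of 4 controls correlated best with its own number. A fit with the replicate block called 4 members (*Incenp* added), 2 other mitosis genes, 6 replication genes and 1341 genes in all.

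The direction reversed for 4 members with small differences. *Mad2l1* was −0.044 with the replicate block, −0.15 with limma voom and from −0.20 (without *K-Setd2KO* replicate 4) to 0.46 with 1 tumor left out. *Spc24* ran from −0.25 to 0.044 with 1 tumor left out, above 0 without *K-Ctrl* replicate 1 or *K-Setd2KO* replicate 1 or 3. *Cdc20* ran from −0.30 to 0.14, above 0 without *K-Ctrl* replicate 4 or *K-Setd2KO* replicate 2 or 3, and *Pttg1* from −0.82 to 0.46, above 0 without *K-Ctrl* replicate 1 or *K-Setd2KO* replicate 3. The other 34 members kept their sign in every alternative in which they were fitted, *Cdc25c* not being fitted with at least 10 counts in every tumor or without *K-Ctrl* replicate 1 or 3, and *Ttk* not with at least 10 counts in every tumor. With 4 tumors a group and a wide spread in *K-Setd2KO*, intervals of many members span both no difference and over 2-fold. The shallowest tumor was *K-Setd2KO* replicate 4, with 3262 counts summed over the members. Replicates 2 and 3 had fewer, 2424 and 2655, so counting error weighs on the members in these tumors as well.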
